A study of Rattus norvegicus with 9 samples.

Results

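The kidneys of rats given spironolactone on top of deoxycorticosterone acetate (DOCA) were set against those of sham-operated rats, to describe which cell types still differed from the sham kidney under the drug. All nuclei whose recorded treatment was Control or Spironolactone were taken, which gave 25506 of 53298 nuclei (47.9%) in 4 of 9 libraries. The study profiled whole kidney from male Sprague-Dawley rats by snATAC-Seq, in which a transposase marks open chromatin nucleus by nucleus. Control rats were sham operated, with no DOCA and no drug named for them. Spironolactone rats lost a kidney, drank salt water, were injected with DOCA every week (50 mg/kg) and received spironolactone by daily gavage (50 mg/kg). The labels give an age of 6 weeks for every sample and no time on treatment. Surgery, salt, hormone and drug therefore all differed between the groups, and their shares in a difference cannot be told apart.

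DOCA is a mineralocorticoid, a steroid that makes the collecting duct retain sodium through the mineralocorticoid receptor. Spironolactone is a steroidal blocker of that receptor. In kidneys damaged by mineralocorticoid and salt, podocytes (the cells that hold the glomerular filter), proximal tubule cells and infiltrating macrophages are the cells usually followed, and injured proximal tubule cells take on a state with markers such as *Havcr1* and *Vcam1*.

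Both groups were sequenced with each of 2 kits, called scATAC here where only chromatin is read and Multiome where RNA is read from the same nucleus. The Control libraries held 2455 (scATAC) and 5095 nuclei (Multiome), and the Spironolactone libraries held 2721 and 15235. The codes of the Spironolactone pair of libraries share a stem, and so do those of the DOCA pair. The sources used here do not say whether each pair was made from one and the same kidney, so the spread between such libraries, which enters every limma test and interval here, may be technical. Control and Spironolactone libraries had 13 cell barcodes in common with scATAC and 126 with Multiome. The same label in both libraries was carried by 4 of the 13 (30.8%, against 28.2% for random pairs of nuclei) and by 14 of the 126 (11.1%, against 13.3%). The nuclei carry 12 cell type labels. Their marker genes could not be checked, because no gene values were analysed here. On the deposited map the 15 nearest neighbours of a nucleus carried its own label in 90.2% to 92.6% of cases over the 4 libraries. The MyoFib label was less separate in the Spironolactone scATAC library, where 63.0% of the neighbours of its 11 nuclei were MyoFib and 33.9% were fibroblasts.

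Of the 12 labels, 2 had a lower share of all nuclei in both kits, podocytes and intercalated cells, and of these only podocytes passed the test. Podocytes made up 1.55% of the Control scATAC library (38 nuclei, exact 95% interval 1.1 to 2.12) and 2.96% of the Control Multiome library (151 nuclei, 2.52 to 3.47). In Spironolactone kidney they were 0.368% of the scATAC library (10 nuclei, 0.176 to 0.675) and 0.368% of the Multiome library (56 nuclei, 0.278 to 0.477). The intervals of the groups did not overlap in either kit, and the podocyte share in Spironolactone was 0.237 of that in Control with scATAC and 0.124 with Multiome. Control averaged 2.26% ± 1.00 (SD, n = 2) and Spironolactone 0.368% ± 0.000044 (SD, n = 2). The Spironolactone SD lies far below the counting error of its libraries given above, so it does not measure how much kidneys differ.

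In a limma fit of the 9 libraries that accounted for kit, podocytes fell by 2.54 on the log2 odds scale (the log2 of a share over its remainder; standard error 0.56, 95% interval -3.68 to -1.40, adjusted p = 0.000809). They were the only label of 12 that passed at an adjusted p under 0.05 (8.33% of the labels tested, 1 lower and 0 higher), while 2 labels had an unadjusted p under 0.05. These p-values used an SD pooled over the 12 labels (0.564, with 36 degrees of freedom), whereas podocytes alone had 0.355 with 3. The shares of a library add up to the whole, so the labels are not independent and the small p depends on the pooling. The podocyte call was lost with the arcsine square root of the share (adjusted p = 0.302) and without the Spironolactone Multiome library (-2.06, adjusted p = 0.198). A smaller share of nuclei can come from fewer cells, from poorer recovery of their nuclei or from a different label, and these cannot be told apart.

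The podocyte difference was also present when only the nuclei outside the tubule were counted. Among endothelial, fibroblast, myofibroblast, macrophage and podocyte nuclei, podocytes were 18.5% (13.5 to 24.5) and 17.4% (15 to 20.1) in the Control libraries, scATAC before Multiome. They were 3.37% (1.63 to 6.10) and 3.56% (2.70 to 4.59) in those of Spironolactone. Within that compartment the kits gave nearly the same values, and podocytes fell by 2.58 (standard error 0.32, adjusted p = 0.00236 with limma). This value passed under all 15 alternatives, with log2 changes between -2.82 and -2.35 where the log scale was kept. It was the only one of 12 labels that passed among shares within compartments (8.33%, 1 lower and 0 higher, 2 at an unadjusted p under 0.05).

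Set against endothelium, which lines the glomerular capillaries among other vessels, there were 0.475 podocytes per endothelial nucleus in the Control scATAC library and 0.374 in the Control Multiome library. The ratio was 0.0813 and 0.0911 in Spironolactone. All podocyte nuclei of both Spironolactone libraries lay in the single podocyte island of the map, where 99.3% (scATAC) and 98.0% (Multiome) of their neighbours were podocytes. In Control the values were 98.4% (scATAC) and 92.3% (Multiome). Of the 151 Control Multiome podocytes, 94.0% lay in the island, and 5.56% of the neighbours of all 151 were iPT nuclei.

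The podocyte share of the Spironolactone libraries is set here beside that of DOCA rats without a drug. It was 0.364% (9 nuclei, 0.167 to 0.690) and 0.634% (58 nuclei, 0.482 to 0.819) in DOCA. With Multiome the Spironolactone share (0.278 to 0.477) lay below that of DOCA, and the counting intervals did not overlap. The difference between Spironolactone and DOCA was -0.39 (95% interval -1.54 to 0.75, adjusted p = 0.589 with limma), which does not show that the groups were alike. Finerenone, a non-steroidal blocker of the same receptor, gave 1.27% and 2.64%, and the difference of Spironolactone from Finerenone was -2.31 (adjusted p = 0.00267 with limma).

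**Figure D1:**
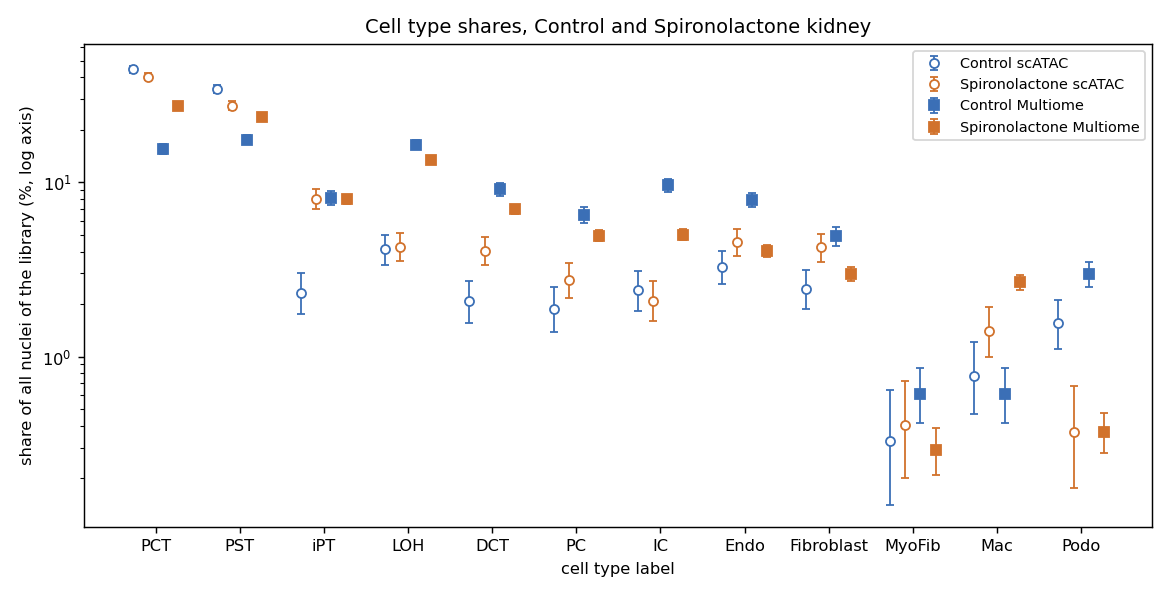
Share of each cell type label among all nuclei (%, log axis) in the 4 libraries of Control (blue) and Spironolactone (orange), open circles for the scATAC kit and filled squares for the Multiome kit, with exact 95% intervals for counting error. Podocytes were lower in both Spironolactone libraries (0.368% each) than in both Control libraries (1.55% and 2.96%), and macrophages were higher in both (1.40% and 2.67%, against 0.774% and 0.608%).

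Macrophages, the phagocytes that accumulate in injured kidney, were the only label with a higher share of all nuclei in both kits. They were 0.774% (19 nuclei, 0.467 to 1.21) and 0.608% (31 nuclei, 0.414 to 0.863) of the Control libraries. In Spironolactone they were 1.40% (38 nuclei, 0.990 to 1.91) and 2.67% (407 nuclei, 2.42 to 2.94). The Spironolactone libraries both lay above the Control libraries, by 1.80-fold with scATAC, where the intervals overlapped, and by 4.39-fold with Multiome, where they did not. Not overlapping in this direction was seen for 1 of 12 labels (8.33%).

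The limma change of macrophages was 1.49 (standard error 0.56, 95% interval 0.35 to 2.64) and did not pass after adjustment (adjusted p = 0.0718). It passed under 5 of 17 alternatives, among them the centred log ratio (adjusted p = 0.014) and the fit without the Control scATAC library (1.83, adjusted p = 0.0203). Without the Spironolactone Multiome library it was 0.96 (adjusted p = 0.931).

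Among nuclei outside the tubule the kits differed in size but not in direction. Macrophages took 9.27% and 3.58% of these nuclei in Control, and 12.8% and 25.8% in Spironolactone. There were 0.309 macrophages per endothelial nucleus in the Spironolactone scATAC library against 0.237 in that of Control, a log2 difference of 0.36 whose counting interval (-0.52 to 1.25) included 0. In the Multiome kit the values were 0.662 and 0.0767, a log2 difference of 3.09 (2.53 to 3.64). The change within the compartment was 1.86 (adjusted p = 0.284 with limma) and did not pass under 14 of 15 alternatives. It was 2.66 without the Control scATAC library (adjusted p = 0.00227 with limma) and 2.86 without the Spironolactone scATAC library. With a Multiome library left out it was 1.06 (that of Control) or 0.85 (that of Spironolactone). In the Spironolactone scATAC library 77.4% of the neighbours of macrophage nuclei were macrophages, against 91.2% in both Control libraries and 89.3% in the Spironolactone Multiome library.

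For comparison, DOCA kidney without a drug had 4.13% and 7.58% macrophages. The Spironolactone libraries lay between those of Control and those of DOCA in each kit. These values come from the same Control and Spironolactone libraries as the comparison above and do not add to it.

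**Figure D2:**
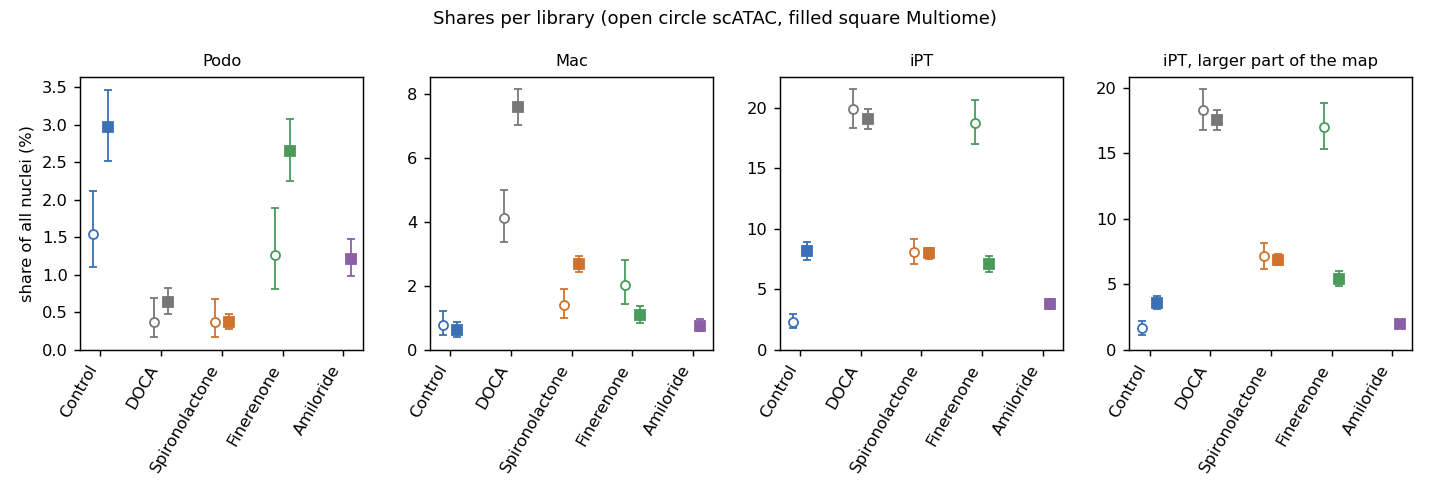
Shares of podocytes, macrophages, iPT nuclei and iPT nuclei in the larger part of the map among all nuclei (%, axes from 0) in each of the 9 libraries, with exact 95% intervals. Podocytes of the Spironolactone libraries (0.368% each) were close to DOCA with scATAC (0.364%) and below it with Multiome (0.634%). Macrophages (1.40% and 2.67%) sit between Control and DOCA in each kit. The whole iPT label does so with scATAC only, since with Multiome it is 8.15% in Control and 7.97% in Spironolactone.

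The total share of the injured proximal tubule label (iPT) showed no difference that passed. It was 2.32% (57 nuclei, 1.76 to 3.00) and 8.15% (415 nuclei, 7.41 to 8.93) in Control, and 8.05% (219 nuclei, 7.05 to 9.13) and 7.97% (1214 nuclei, 7.54 to 8.41) in Spironolactone. The Spironolactone libraries were alike, whereas those of Control differed from each other by more than counting error. The log2 odds difference between the groups was 1.87 (counting interval 1.44 to 2.30) with scATAC and -0.04 (-0.20 to 0.13) with Multiome. The limma change was 0.92 (95% interval -0.23 to 2.06, adjusted p = 0.449). It was 2.14 (adjusted p = 0.00502) without the Control Multiome library and -0.31 (adjusted p = 0.588) without the Control scATAC library, so its direction rested on which Control library was used.

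Within the proximal tubule the kits went in opposite directions. Among nuclei of the proximal convoluted (PCT), proximal straight (PST) and iPT labels, iPT took 2.86% and 19.7% in Control and 10.6% and 13.5% in Spironolactone. The change within the compartment was 0.67 (adjusted p = 0.654 with limma), with 2.22 (adjusted p = 0.00629) without the Control Multiome library.

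The position of these nuclei on the map bears on the iPT share in the Multiome kit. There the iPT nuclei of Control and Spironolactone hardly intermixed. Among equal numbers of iPT nuclei from both groups (415 each), 79.6% of the 15 nearest neighbours came from the same group, where 50% would mean full mixing. In the scATAC kit the value was 52.4% (57 nuclei each). With the Multiome libraries thinned to 57 nuclei it was 73.0%. For the other labels the share was 49.4% to 54.2% with scATAC and 55.4% to 64.1% with Multiome.

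**Figure D3:**
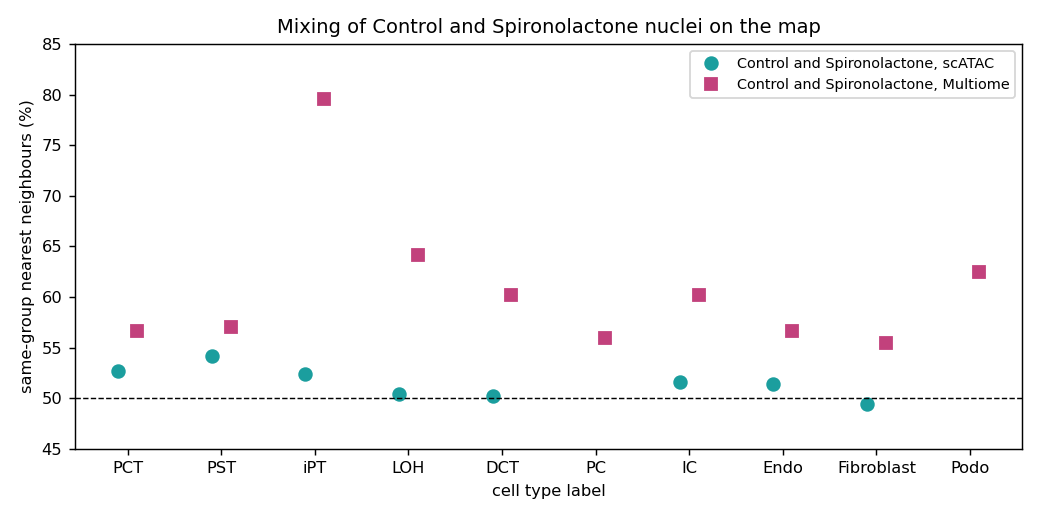
Share of the 15 nearest neighbours from the same group (%, axis from 45 to 85) among Control and Spironolactone nuclei of each label, for the scATAC kit (circles) and the Multiome kit (squares), with the dashed line at 50% for full mixing. Labels with fewer than 50 nuclei in a library are left out, and iPT in the Multiome kit stands apart at 79.6%.

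The library that stood apart was that of Control. Its median iPT nucleus lay at -3.43 on UMAP_1, against 0.22 in the Spironolactone Multiome library, 0.29 in the Control scATAC library and -0.12 in the Spironolactone scATAC library. The median positions of the Multiome libraries were 3.75 map units apart, and those of both Control libraries 3.8, whereas the Spironolactone libraries were 0.36 apart. No other label had medians more than 1.21 units apart between the groups. At an equal number of 311 nuclei, the Control Multiome library also differed from DOCA (79.5% same-group neighbours), Finerenone (77.1%) and Amiloride (69.9%). The pairs without it gave 52.1% to 66.9%.

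With a finer search radius (0.3 map units), the iPT label fell into a larger part of 4322 nuclei around 0.31 on UMAP_1 and a smaller part of 759 nuclei around -3.88. The description by part was chosen after the positions were seen and carries no test. The smaller part held 51.6% (46.6 to 56.5) of the iPT nuclei of the Control Multiome library and 21.1% (11.4 to 33.9) of those of the Control scATAC library. In Spironolactone it held 9.59% (6.03 to 14.3) and 11% (9.33 to 12.9). The Amiloride library had 45.7% of its iPT nuclei there, and its code shares a stem with that of the Control Multiome library.

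The share of each part follows as a description. The parts were told apart after the positions were seen, and setting the smaller one aside removes over 51% of the Control Multiome iPT nuclei but 11% of those of Spironolactone, so a Multiome difference in the larger part follows from that choice and supports nothing. The larger part took 1.63% (40 nuclei, 1.17 to 2.21) and 3.57% (182 nuclei, 3.08 to 4.12) of all nuclei in Control, and 7.13% (194 nuclei, 6.19 to 8.16) and 6.89% (1050 nuclei, 6.49 to 7.31) in Spironolactone. The Spironolactone share was 4.38 times that of Control with scATAC and 1.93 times with Multiome. The smaller part took 0.489% and 4.20% of all nuclei in Control and 0.772% and 0.880% in Spironolactone, or 1.58 and 0.209 times the Control share. Among proximal tubule nuclei the larger part took 2.01% and 8.65% in Control and 9.39% and 11.6% in Spironolactone. In DOCA kidney the larger part took 18.3% and 17.5%.

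Even there the Control Multiome nuclei were placed differently, since 75.8% of them lay left of -1 on UMAP_1, against 15% to 33.1% in the other 8 libraries. The border at -1 was drawn after this was seen, and it leaves out most Control Multiome nuclei, so the Multiome fold that follows is fixed by that choice and supports nothing. Counting only iPT nuclei right of -1 gave 1.47% (1.03 to 2.02) and 0.903% (0.662 to 1.20) of all nuclei in Control and 5.29% (4.48 to 6.20) and 5.72% (5.36 to 6.10) in Spironolactone, which is 3.61-fold and 6.34-fold higher. The equal iPT shares of the Multiome libraries counted nuclei with different median positions on the map. Whether they differ in chromatin at injury genes was not tested.

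**Figure D4:**
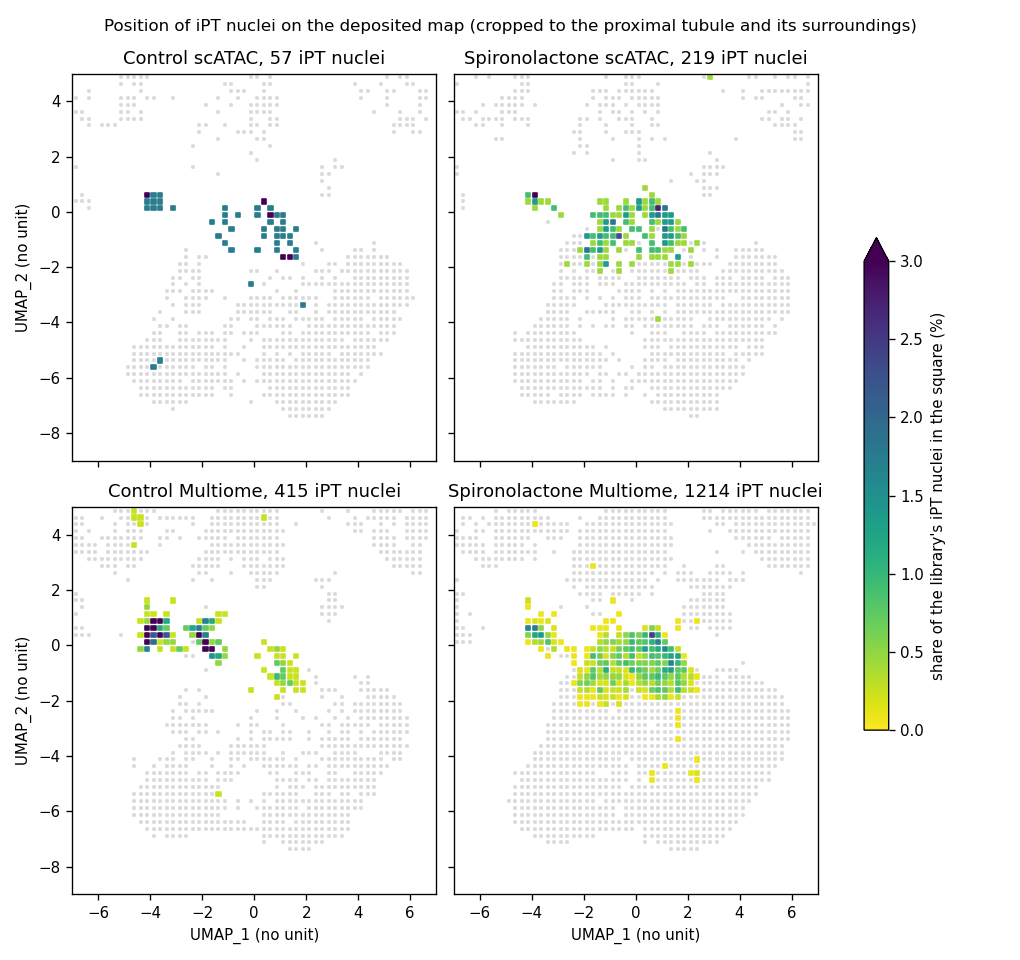
iPT nuclei on the deposited map, cropped to the proximal tubule and its surroundings, in squares of 0.25 units coloured by the share of the library's iPT nuclei they hold (%, scale ending at 3), with all other squares that hold nuclei in grey. Control Multiome iPT nuclei cluster at the left (median UMAP_1 of -3.43), while those of the other 3 libraries lie mostly around 0.

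The uninjured proximal tubule labels showed no difference that passed. PCT, which reabsorbs most of the filtered load, took 44.6% and 15.6% of all nuclei in Control and 40.4% and 27.5% in Spironolactone (change 0.40, 95% interval -0.75 to 1.54, adjusted p = 0.947 with limma). PST, the straight segment, took 34.3% and 17.6% in Control and 27.5% and 23.7% in Spironolactone (change 0.04, -1.10 to 1.19, adjusted p = 0.955 with limma). Both were lower in the scATAC kit and higher in the Multiome kit. Within the proximal tubule PST was 42.2% and 42.6% in Control and 36.3% and 40.0% in Spironolactone, so that both Spironolactone libraries lay below both Control libraries (change -0.26, adjusted p = 0.654 with limma). Leaving out the Control scATAC library gave -0.05, and leaving out that of the Multiome kit gave -0.47. There were 1.3 and 0.885 PCT per PST nucleus in Control and 1.47 and 1.16 in Spironolactone.

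On UMAP_2, the median PCT and PST nuclei of Spironolactone kidney lay nearer to the iPT region of the map than those of Control. Median PST nuclei lay at -5.36 and -5.46 on UMAP_2 in Control, at -4.99 and -4.57 in Spironolactone and at -3.76 and -3.10 in DOCA. Median PCT nuclei lay at -4.91 and -5.06 in Control, at -4.02 and -4.04 in Spironolactone and at -3.35 and -2.88 in DOCA. On this axis the Spironolactone libraries were in between in both labels, without overlap with either group. Over all labels and both axes this was so for 7 of 24 medians, and Control and Spironolactone did not overlap in 9 of 24 (37.5%). On UMAP_1 the PCT medians were also in between. Those of PST overlapped (-2.90 and -2.61 in Control, -2.73 and -2.50 in Spironolactone). The distance between the medians of the groups was 0.906 (scATAC) and 1.21 (Multiome) for PCT and 0.403 and 0.899 for PST. Between the kits of Control and of Spironolactone it was 0.337 and 0.180 for PCT, and 0.304 and 0.483 for PST. For PST with scATAC the groups were thus no further apart than the Spironolactone kits. These distances were smaller than the spread of the labels, whose nuclei lay a median of 2.00 to 2.25 (PCT) and 1.31 to 1.90 units (PST) from the median of their own library.

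PST nuclei were also placed along the straight line from the median PST to the median iPT nucleus of all libraries, a measure chosen after the positions were seen. More than halfway along it lay 10.8% and 9.04% of PST nuclei in Control, 20.0% and 17.2% in Spironolactone and 26.3% and 38.9% in DOCA. These positions are a description of nuclei from 2 libraries a group. Map distances have no unit, and the authors computed them after batch correction.

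Over all 12 labels and both map axes, the medians of Control and Spironolactone did not overlap in 9 of 24 cases (37.5%). In 7 of the 24, both Spironolactone libraries lay between those of Control and those of DOCA. Outside the proximal tubule these were loop of Henle (LOH) nuclei on UMAP_1 (-0.0089 and 0.033 in Control, -0.35 and -0.46 in Spironolactone, -1.35 and -1.05 in DOCA), fibroblasts on UMAP_1 (-8.79 and -8.71, -8.46 and -8.40, -8.27 and -8.23) and podocytes on UMAP_2, where the medians spanned from -3.38 to -3.45. For each of these labels, except iPT with Multiome and LOH with Multiome, the groups' medians were closer together than the nuclei of either library lay, in the median, to their own library's median.

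**Figure D5:**
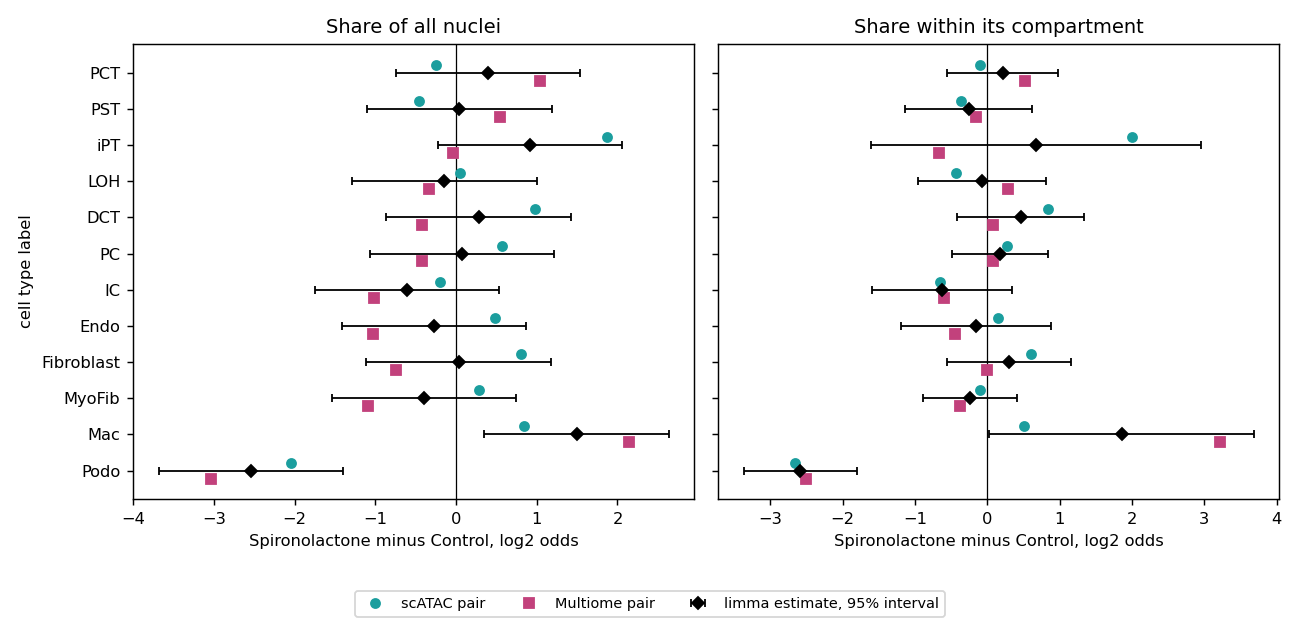
Difference between Spironolactone and Control in log2 odds for each label, as a share of all nuclei (left) and within its compartment (right), with the limma estimate and its 95% interval (black) and the value of each kit's pair of libraries (circle scATAC, square Multiome). Podocytes lie below 0 with their interval in both panels (-2.54 and -2.58), and the kits lie on opposite sides of 0 for 9 labels on the left and 5 on the right.

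In the distal nephron, which holds the segments with the mineralocorticoid receptor's main transport targets, no label passed. Principal cells (PC), which take up sodium through the epithelial sodium channel, were 1.87% and 6.50% of nuclei in Control and 2.76% and 4.95% in Spironolactone (change 0.07, 95% interval -1.07 to 1.22, adjusted p = 0.955 with limma). Within the distal nephron they were 17.9% and 15.6% in Control and 20.9% and 16.3% in Spironolactone (change 0.17, -0.49 to 0.84).

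Intercalated cells (IC), which secrete acid or base, were lower in both kits on either scale. They took 2.40% and 9.62% of all nuclei in Control and 2.09% and 5.01% in Spironolactone (change -0.61, 95% interval -1.75 to 0.54, adjusted p = 0.867 with limma). With 1 library left out this change ran from -0.91 (Control scATAC out) to -0.30 (Control Multiome out). Among distal nephron nuclei they took 23.0% (18.0 to 28.6) and 23.1% (21.3 to 24.9) in Control and 15.9% (12.3 to 20.1) and 16.5% (15.4 to 17.6) in Spironolactone. The intervals of the groups overlapped with scATAC and did not with Multiome. The groups averaged 23.0% ± 0.0719 (SD, n = 2) and 16.2% ± 0.395 (SD, n = 2). These SDs lie below the counting error of the libraries, so they do not show that the spread was small. The change of -0.63 did not pass (adjusted p = 0.653 with limma), nor did it under any of the 15 alternatives run. It was -0.31 without the Control scATAC library, -0.35 without the Spironolactone Multiome library, -0.94 without the Multiome library of Control and -0.91 without the scATAC library of Spironolactone. The DOCA libraries were at 5.63% and 13.0%. There were 1.28 and 1.48 IC per PC nucleus in Control and 0.760 and 1.01 in Spironolactone.

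Distal convoluted tubule (DCT) nuclei, which take up sodium by the thiazide-sensitive transporter, were 2.08% and 9.15% of all nuclei in Control and 4.04% and 6.99% in Spironolactone (change 0.28, adjusted p = 0.947 with limma). They were 19.8% and 21.9% of the distal nephron in Control and 30.7% and 23.0% in Spironolactone (change 0.46, adjusted p = 0.654 with limma), and the change ran from 0.11 (Control scATAC out) to 0.81 (Control Multiome out) with 1 library left out. LOH nuclei, from the segment that dilutes the urine, were 4.11% and 16.4% of all nuclei in Control and 4.26% and 13.5% in Spironolactone (change -0.14, adjusted p = 0.955 with limma). Within the distal nephron they were 39.3% and 39.4% in Control and 32.4% and 44.3% in Spironolactone, in opposite directions in the kits. Within compartments both Spironolactone libraries lay above both Control libraries for 2 of 12 labels (16.7%, DCT and macrophages) and below them for 3 (25%, PST, IC and podocytes).

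The stroma and vessels gave no difference that passed. Endothelial nuclei were 3.26% and 7.93% in Control and 4.52% and 4.04% in Spironolactone (change -0.27, adjusted p = 0.947 with limma). Fibroblasts were 2.44% and 4.89% in Control and 4.23% and 2.97% in Spironolactone (change 0.03, 95% interval -1.11 to 1.18), or 0.750 and 0.616 per endothelial nucleus in Control and 0.935 and 0.737 in Spironolactone. The MyoFib label rested on 8 and 31 nuclei in Control and 11 and 44 in Spironolactone (change -0.40, adjusted p = 0.947 with limma). Its counting interval included 0 with scATAC (-0.99 to 1.57) and lay below 0 with Multiome (-1.75 to -0.43).

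The compartments went in opposite directions in the kits. Proximal tubule nuclei took 81.2% and 41.3% in Control and 75.9% and 59.2% in Spironolactone. Distal nephron nuclei took 10.5% and 41.7% in Control and 13.2% and 30.4% in Spironolactone, and the others 8.35% and 17.0%, and 10.9% and 10.3%. With limma 0 of 3 compartments passed (0%, also 0 at an unadjusted p under 0.05, adjusted p = 0.741 for each). Without the Control scATAC library 2 passed, namely proximal tubule (1.06, adjusted p = 0.0213) and distal nephron (-0.89, adjusted p = 0.0227), and without the Control Multiome library the estimates were -0.47 and 0.55.

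Over the whole composition, 12.5% of nuclei with scATAC and 20.2% with Multiome would have to change label to turn the Control shares into those of Spironolactone. The same quantity was 45.9% between both Control libraries and 18.5% between both Spironolactone libraries, so the kits of Control differed by more than the groups did. On the scale of log ratios (Aitchison distance), which gives rare labels as much weight as frequent ones, Control and Spironolactone were 3.08 (scATAC) and 4.07 (Multiome) apart, against 4.07 between the kits of Control and 2.53 between those of Spironolactone. Podocytes made up 54.5% of the squared distance with scATAC and 41.7% with Multiome. The next label was iPT in the scATAC kit (24.7%) and macrophages in the Multiome kit (37.2%). From DOCA the Spironolactone libraries were 3.05 and 2.70 apart, and Control lay 5.27 and 4.81 from DOCA.

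An exact permutation test could not pass with these libraries, since the smallest two-sided p is 0.5 when groups are exchanged within kits and 0.333 when 2 libraries are set against 2.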

How the data were processed

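Nuclei from whole rat kidney were profiled by snATAC-Seq. The authors aligned reads to rn6 with Cell Ranger ATAC 1.1.0, merged and filtered nuclei in Signac 1.3.0 by fragments, reads in peaks, nucleosome signal and start site enrichment, corrected batches with Harmony and named clusters from marker accessibility. Filters and correction acted before deposit and can shift shares and positions. The deposited metadata hold names (library code, treatment, label), and the deposited UMAP coordinates are a score without a unit. No doublet caller was applied here, and none is stated for these nuclei in the sources used here. The peak counts were not used here.

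Groups came from the treatment labels. Kits were assigned from shared barcodes, since libraries of different kits shared at most 1. Depth was 1817 to 15235 nuclei over the 9 libraries, and exact Clopper-Pearson 95% intervals (scipy 1.17.1) and normal-approximation intervals of log odds and log ratios (counting intervals) cover counting error only. The log2 of (count + 0.5)/(remainder + 0.5) was fitted with limma 3.58.1 (R 4.3.3) over 9 libraries with group and kit as terms, two-sided, with Benjamini-Hochberg adjustment over 12 labels (3 for compartments) and a threshold of 0.05. Over all nuclei every label took an SD of 0.564, pooled over the 12 labels. This gave 36 degrees of freedom, against 3 for a label alone, although the shares of a library are not independent. Within compartments there were 5.98. Same-kit libraries deviated together in all 6 pairs of groups (correlations 0.287 to 0.705), which is why kit was a term. P-values measure the spread between libraries. Neighbours (15) and islands (DBSCAN, radius 0.5 or 0.3, 15 nuclei) used scikit-learn 1.9.0, after thinning to equal numbers, for labels with at least 50 nuclei. The limma and neighbour steps were tested on simulated data.

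The comparison, labels, ratios and lists were chosen with earlier results of these data known. By the rule for named features all 12 labels are given, with full statistics for those past the threshold and for iPT, PST, PCT, podocytes, macrophages and PC. The parts of iPT, the position right of -1, the line between PST and iPT and the order of map medians were added after seeing the data.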

Additional observations from a re-analysis of the deposited data

Results flagged for a closer look

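For several labels the libraries of the kits differed in opposite directions from Control to Spironolactone, each beyond counting error. With 1 library per group and kit, the difference between kits itself was not tested. It is given as the Multiome change minus the scATAC change in log2 odds. As shares of all nuclei this was so for 6 of 12 labels. PCT (1.29) and PST (1.00) were lower in the scATAC kit and higher in the Multiome kit. DCT (-1.40), PC (-0.98), endothelium (-1.52) and fibroblasts (-1.56) were the other way round. The same held for the compartments, with 1.5 for the proximal tubule, -1.08 for the distal nephron and -1.26 for the others. Within compartments only 1 of 12 labels, iPT, met this description (-2.66), and there the Control Multiome library was also the library whose iPT nuclei lay elsewhere on the map. The Control libraries differed in their proximal tubule share (81.2% and 41.3%) by more than those of Spironolactone did (75.9% and 59.2%). The part of tissue sampling, kit and animal in this was not tested.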

How the results depend on the processing

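The podocyte change over all nuclei passed under 14 of 16 alternatives (adjusted p from 8.53e-05 to 0.302) and lay between -3.03 and -2.06 with 1 library left out. On the arcsine scale it was -0.0882 and did not pass. The number of labels past the threshold was 0 with the arcsine square root and 0 with the labels under 10 nuclei in any library (podocytes and MyoFib) left out, and 2 with libraries thinned to 1817 nuclei (macrophages 1.59, adjusted p = 0.0436 with limma) and 2 with the centred log ratio (macrophages 1.53). Leaving out 1 library at a time gave 0 to 2 over all nuclei (0 without the Spironolactone Multiome library, 2 without either Control or either Finerenone library), 1 to 2 within compartments (2 without either Control library) and 0 to 2 for the compartments (2 without the Control scATAC library). The kit pairing changed no call, since the fit with no replicate block gave the same numbers of calls (1, 1 and 0), with podocytes at -2.54 (adjusted p = 0.029 with limma).

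Leaving out 1 library turned the direction of 9 labels over all nuclei, none of which had passed. Their lowest and highest changes were -0.20 and 1.00 (PCT), -0.51 and 0.60 (PST), -0.31 and 2.14 (iPT), -0.64 and 0.36 (LOH), -0.59 and 1.15 (DCT), -0.57 and 0.72 (PC), -0.95 and 0.41 (Endo), -0.66 and 0.72 (fibroblasts) and -0.88 and 0.083 (MyoFib). Within compartments 5 turned, with -0.066 and 0.49 (PCT), -0.88 and 2.22 (iPT), -0.37 and 0.22 (LOH), -0.60 and 0.30 (Endo) and -0.14 and 0.74 (fibroblasts). All 3 compartments turned, with -0.47 and 1.06 (proximal tubule), -0.89 and 0.55 (distal nephron) and -0.63 and 0.23 (others). PC was -0.00195 on the arcsine scale. Each of these reversals came with a Control or Spironolactone library left out, apart from that of PC on the arcsine scale. Where a Control or Spironolactone library is left out, its group rests on 1 library that is assumed to vary like the others, and the cause of the changes was not tested. The median share of same-group neighbours stayed between 50.7% and 52.2% with scATAC and between 56.7% and 60.2% with Multiome, and the finer radius gave 14 islands in place of 13. Depth limits the podocyte, macrophage and MyoFib values of the scATAC kit, at 8 to 38 nuclei in the Control and Spironolactone libraries.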
